A study of Mus musculus with 6 samples.

Results

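The aminoacyl-tRNA synthetase genes are described here in day 4 embryoid bodies (D4 EBs). They were the rows whose symbol is a single capital followed by "ars" or "ars2", together with *Eprs*, *Farsa*, *Farsb* and *Tarsl2*. This rule found 38 of the 15266 listed genes. Symbols ending in 2 were taken as genes of mitochondrial enzymes, except *Tarsl2*, which gave 21 cytosolic and 17 mitochondrial genes. All 38 passed the filter on low counts, the lowest value of any of them being 63 reads in a library.

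mRNA-seq had been performed on EBs of 2 lines derived from W9.5 mouse ESCs, with 3 replicates of each, to ask whether the antisense transcript *Evx1as* acts separately from the homeodomain factor EVX1. The EVX1-Δfs line, clone 14, carries small frameshifts in both alleles of *Evx1*, with *Evx1as* left in place. The Del#3 line lacks 2.6 kb of the shared locus, including promoters of both transcripts, so neither line makes functional EVX1. Both were grown for 4 days in serum-containing medium without LIF, in pairs set up side by side, each pair on a day of its own. Libraries of the same replicate number were taken as a pair here, although the descriptions do not tie the days to these numbers. Each line is a single edited line, so the genotype and the line cannot be told apart. Wildtype EBs were not analysed here.

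The libraries held 9024579 to 15699124 recovered reads, and replicate 1 was the deepest library of both lines. *Evx1* had 2582 to 4023 reads in the EVX1-Δfs libraries and 28 to 48 in the Del#3 libraries. Markers of the primitive streak and nascent mesoderm summed to 609 to 868 RPM (reads scaled to 1000000 per library), those of the pluripotent epiblast to 695 to 1101 RPM and those of definitive endoderm to 269 to 395 RPM. Of the neurectoderm genes, *Sox1* and *Pax6* were each under 1 RPM on average, while *Nes* was at 141 to 215 RPM. EBs hold several cell types, and in bulk RNA fewer cells of a type and less RNA per cell cannot be told apart.

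Synthetases attach each amino acid to its own tRNA and so set the meaning of the genetic code at every round of translation. They fall into a pair of unrelated structural classes, I and II. Most amino acids have separate nuclear genes for the enzyme of the cytosol and that of mitochondria, where proteins of the respiratory chain are made. Several cytosolic enzymes sit together in the multisynthetase complex. The transcription factor ATF4, the effector of the amino acid response, is known to activate many cytosolic synthetase genes through a composite C/EBP-ATF element.

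This element was looked for as TGATGNAA, on both strands, in the RefSeq promoter windows of GRCm38.p6, from 250 bases before to 50 bases after each start. Windows were matched for 28 of the 38 genes, 14 of each compartment. The letters were present in a window of 5 of the 14 cytosolic genes, *Aars*, *Gars*, *Iars*, *Tars* and *Yars*, or 35.7%. They were in a window of 0 of the 14 mitochondrial genes and of 1219 of the 27025 genes with a window, or 4.51%. A match is a description of the window and not a binding site. The matches of *Gars* and *Tars*, which lie before the start, are printed here, placed on NCBIM37 (mm9) by exact match, to show the letters in their context. Capitals mark the match, which is on the opposite strand in both.
*Gars*, chr6:54987954-54987983, plus strand: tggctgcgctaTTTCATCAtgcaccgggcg
*Tars*, chr15:11329414-11329439, minus strand: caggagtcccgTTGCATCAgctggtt
The first base of the match lies at -30 in *Gars* and -15 in *Tars*.

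Levels of different genes were compared per kilobase of exon of the transcript with the longest coding sequence, as RPKM (RPM per kilobase). The expressed isoform was not determined, so a gene whose expressed transcript is shorter than the one used has a higher level than given, which bears on the order of levels and ratios. *Aars*, for which 5750 bases were used, is a gene where this is in doubt. The cytosolic genes had a median of 60.8 RPKM, and the 16 mitochondrial genes other than *Lars2* had a median of 12.9 RPKM. *Kars*, which charges lysine tRNA in both compartments from a single gene, was the highest cytosolic gene at 445 ± 71.0 RPKM (SD, n = 6 libraries of both lines). *Kars* did not fall below 346 RPKM in any library, and no other cytosolic gene exceeded 289 RPKM. *Sars* (serine) followed at 221 ± 61.6 RPKM and *Qars* (glutamine) at 196 ± 46.9 RPKM. Their ranges overlapped with each other and with those of *Farsa* and *Gars*, which averaged 174 ± 29.4 and 170 ± 25.2 RPKM, so the order of these 4 is not set beyond the spread between libraries.

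At the lower end, *Lars* (leucine) averaged 30.2 ± 12.1 RPKM and *Farsb*, the beta subunit of phenylalanyl-tRNA synthetase, 27.1 ± 7.99 RPKM. *Tarsl2*, which encodes a threonyl-tRNA synthetase-like protein of the cytosol, stood apart at 3.40 ± 1.12 RPKM. It did not exceed 4.79 RPKM in any library, while every other cytosolic gene was at 13.3 RPKM or above in all of them. Among mitochondrial genes, *Tars2* averaged 44.6 ± 6.37 RPKM and *Cars2* (cysteine) 28.4 ± 4.74 RPKM. The lowest were *Vars2* (valine) at 6.56 ± 1.60, *Mars2* (methionine) at 2.92 ± 0.502 and *Wars2* (tryptophan) at 2.76 ± 0.387 RPKM, and *Mars2* and *Wars2* overlapped.

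**Figure D1:**
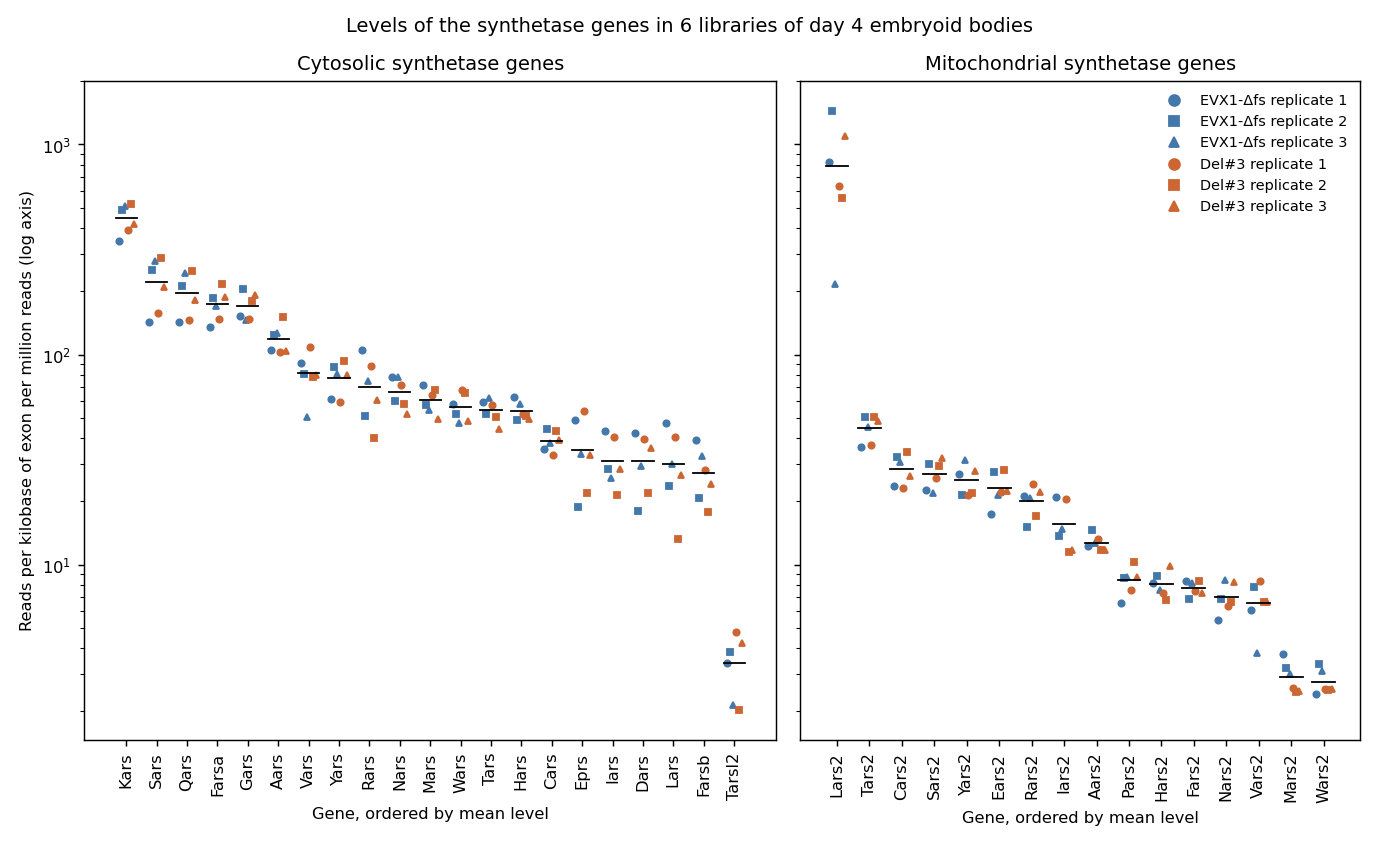
RPKM (log axis) of the 21 cytosolic and 16 of the 17 mitochondrial synthetase genes in each of the 6 libraries, with a black bar at the mean. *Kars* lies above the other cytosolic genes, *Tarsl2* below them, and *Lars2* far above the other mitochondrial genes with the widest scatter.

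For 14 amino acids a cytosolic and a mitochondrial gene with matching symbols were measured, and in 12 of these the cytosolic gene was higher per kilobase in all 6 libraries. Among these 14 the widest gaps were those of *Mars* over *Mars2*, 21.2-fold ± 4.01 (SD, n = 6), and *Wars* over *Wars2*, 21.0-fold ± 5.19. Valine, asparagine, alanine, serine and histidine followed, with mean ratios from 12.5 for *Vars* over *Vars2* to 6.74 for *Hars* over *Hars2*. *Rars* over *Rars2*, *Yars* over *Yars2*, *Iars* over *Iars2* and *Cars* over *Cars2* had mean ratios of 3.44, 3.13, 2.02 and 1.38. The pairs therefore differed widely in how far the cytosolic gene led. Of the enzymes whose symbols do not match, *Farsa* over *Fars2* (phenylalanine) had a mean ratio of 22.6 ± 4.29 (n = 6) and *Farsb* over *Fars2* one of 3.49 ± 0.895. *Eprs* over *Pars2* (proline) had one of 4.42 ± 2.34, and in these 3 comparisons the cytosolic gene was higher in all 6 libraries. *Eprs* over *Ears2* (glutamate) had ratios of 0.684 to 2.79, so that the order changed between libraries.

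The exceptions among the 14 were threonine and leucine. The ratio of *Tars* to *Tars2* ranged from 0.915 to 1.63, so that the order of the pair changed between libraries. The ratio of *Lars* to *Lars2* was 0.0165 to 0.139, with the mitochondrial gene higher in every library.

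*Lars2* was unlike the other mitochondrial genes in both level and scatter. In the order of the replicate numbers, which is kept throughout, EVX1-Δfs had normalized counts of 33117, 59255 and 9484, and Del#3 had 23917, 24270 and 44459. EVX1-Δfs replicate 3 was the lowest library and EVX1-Δfs replicate 2 the highest, and the ranges of the lines overlapped. *Lars2* ranked 20 among all listed genes by mean normalized count, and per kilobase it was 15.8 to 110 times the median of the other mitochondrial genes in the same library. Its residual SD within lines was 1.02 on the log2 scale, against a median of 0.31 and a highest value of 0.62 among the other 37 synthetase genes. It was the only synthetase gene whose libraries of 1 line differed 3-fold or more.

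In NCBIM37, *Lars2* lies at chr9:123276058-123371782 on the plus strand, and a run of 398 bases in its last exon, exon 21, at chr9:123370910-123371307, has near-identical copies elsewhere in the genome. The run lies inside the 3′ UTR, and its 8 copies on 7 chromosomes match at 95.2% to 98.8% identity over 83 to 244 bases. This part of the transcript is known for its likeness to large-subunit ribosomal RNA, which was not checked against a ribosomal sequence here. Ribosomal RNA was present in the libraries, since *Rn45s*, the ribosomal RNA precursor, took 3.20% to 4.86% of reads. *Lars2* did not keep a fixed ratio to it: the *Lars2* count was 8.80%, 11.5% and 2.19% of that of *Rn45s* in EVX1-Δfs, and 7.67%, 5.05% and 9.72% of it in Del#3. The files give 1 value per gene, so the source of the *Lars2* reads was not tested, and values below are given with and without this gene where it decides them.

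**Figure D2:**
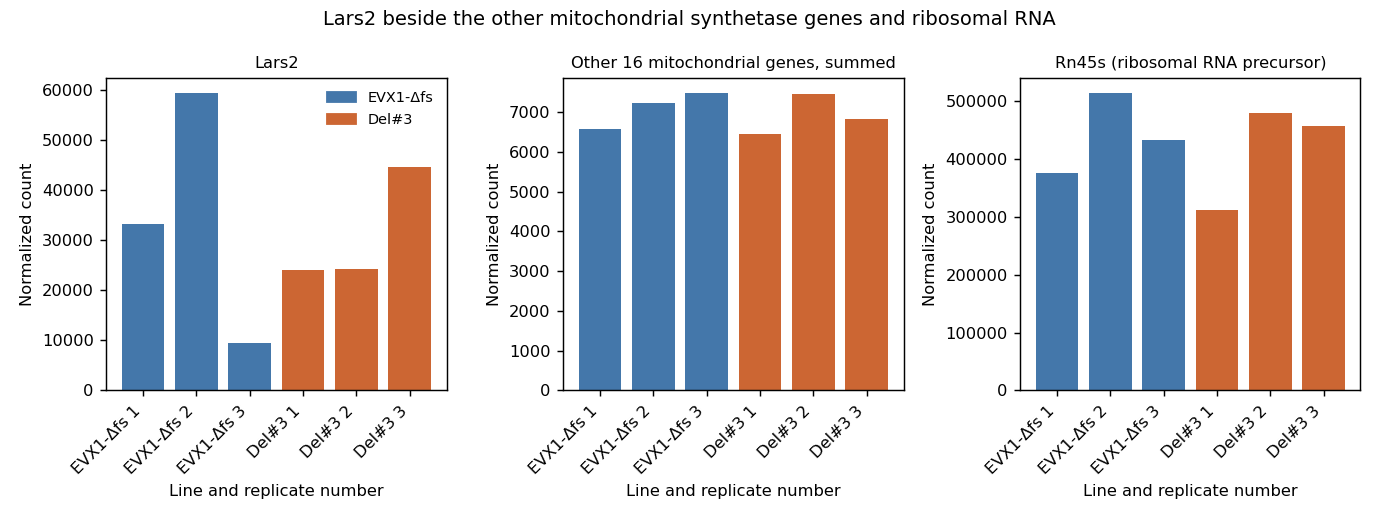
Normalized counts of *Lars2*, of the other 16 mitochondrial synthetase genes summed, and of *Rn45s* in each library, 1 bar per library with each axis starting at 0. *Lars2* runs from 9484 to 59255, while the sum of the others stays between 6438 and 7473.

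With *Lars2*, the 38 genes took 0.712% to 1.18% of the reads of a library. Without it they took 0.572%, 0.618% and 0.628% in EVX1-Δfs, and 0.580%, 0.652% and 0.575% in Del#3. The cytosolic genes held 0.508% to 0.586% and the mitochondrial genes other than *Lars2* 0.0636% to 0.0684%. The libraries of the lines overlapped on each of these shares.

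No synthetase gene passed the test between the lines. By limma on log2(normalized count + 1) with Benjamini-Hochberg adjustment over 12891 genes, 0 of the 38 had an adjusted p under 0.05, where 2 of all genes tested did (0.0155%). At an unadjusted p under 0.05 limma again gave 0 of 38, against 133 genes in all (1.03%). edgeR's quasi-likelihood test and DESeq2's Wald test on the recovered reads also called 0 of the 38, and neither gave any of them an unadjusted p under 0.05. The median log2 fold change, Del#3 against EVX1-Δfs, was -0.05 for the cytosolic genes and -0.04 for the mitochondrial genes, beside 0.002 over all genes tested. Of the 38 estimates, 15 were above 0 and 23 below.

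The precision of this comparison differed between genes. The 95% interval of the log2 difference stayed inside a 2-fold change, up or down, for 33 of the 38 genes (86.8%), compared with 61.1% of all genes tested. The 5 genes whose interval reached 2-fold were *Farsb*, *Lars*, *Lars2*, *Mars2* and *Rars*. With the replicate number as a block this was *Lars2* alone, with an interval from -1.12 to 1.44.

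The 6 genes with the smallest unadjusted p between the lines all had an adjusted p of 1.00 by limma. *Mars2*, the mitochondrial methionyl-tRNA synthetase gene (chr1:55294021-55296902, plus strand, NCBIM37), had normalized counts of 112, 98.4 and 98.1 in EVX1-Δfs and of 72.5, 80.1 and 75.8 in Del#3. All Del#3 libraries were lower than all EVX1-Δfs libraries. Its log2 fold change was -0.42 (SE 0.29), and the two-sided exact permutation test of RPM gave p = 0.1, the smallest that 3 libraries against 3 allow. *Mars2* was the only synthetase gene whose lines did not overlap: 1 of 38 lay lower, beside 1.80% of all genes tested, and 0 of 38 lay higher, beside 1.71%.

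*Farsb* had 864, 466 and 794 normalized counts in EVX1-Δfs, and 587, 426 and 538 in Del#3. The lines overlapped, but Del#3 was the lower library of each pair (log2 fold change -0.42, SE 0.29). *Lars*, the cytosolic leucyl-tRNA synthetase gene, had 1884, 970 and 1310 normalized counts in EVX1-Δfs and 1519, 578 and 1075 in Del#3. Again the lines overlapped and Del#3 was lower in each pair (-0.45, SE 0.37). *Rars* (arginine) had the same order within each pair, with 2286, 1132 and 1786 in EVX1-Δfs and 1812, 956 and 1347 in Del#3 (-0.33, SE 0.32).

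*Nars* (asparagine) had 2135, 1667 and 2309 normalized counts in EVX1-Δfs and 1841, 1736 and 1433 in Del#3, with a log2 fold change of -0.28 (SE 0.23). *Vars2* had the highest estimate, 0.31 (SE 0.29), from 279, 367 and 189 in EVX1-Δfs and 360, 332 and 309 in Del#3. In both genes the pair of replicate 2 went against the other pairs. The estimates of these 6 genes kept their sign with any 1 library left out, but their size depended on single libraries. That of *Lars* was -0.07 without Del#3 replicate 2 and -0.76 without Del#3 replicate 1. That of *Rars* was -0.09 without Del#3 replicate 2 and -0.61 without EVX1-Δfs replicate 2. That of *Farsb* ran from -0.69 to -0.25, that of *Nars* from -0.42 to -0.17 and that of *Vars2* from 0.06 to 0.53, while that of *Mars2* stayed between -0.46 and -0.36.

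Comparing the lines within each replicate number, 6 genes were lower in Del#3 in all 3 pairs, namely *Farsb*, *Iars2*, *Lars*, *Mars2*, *Rars* and *Wars2*, beside 11.0% of all genes tested. Those higher in Del#3 in all 3 pairs were *Farsa*, *Sars2* and *Vars*, beside 12.1%, although the estimate of *Farsa* changed sign under at least 1 alternative. The scaling decides some of these memberships. With TMM factors 5 genes were lower, *Wars2* no longer among them, beside 10.4% of all genes tested, and 5 higher, with *Ears2* and *Rars2* added, beside 12.9%. With total reads 7 were lower, *Wars2* again dropping out and *Nars* and *Tars* joining, beside 9.65%. Those higher were then 5, of which *Farsa* alone was among the 3 above, beside 13.4%. Once the replicate number entered the limma model as a block, *Lars* and *Farsb* had an unadjusted p under 0.05, which makes 2 of 38, beside 596 genes in all (4.62%). Neither passed the adjustment, with an adjusted p of 0.992 for both.

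**Figure D3:**
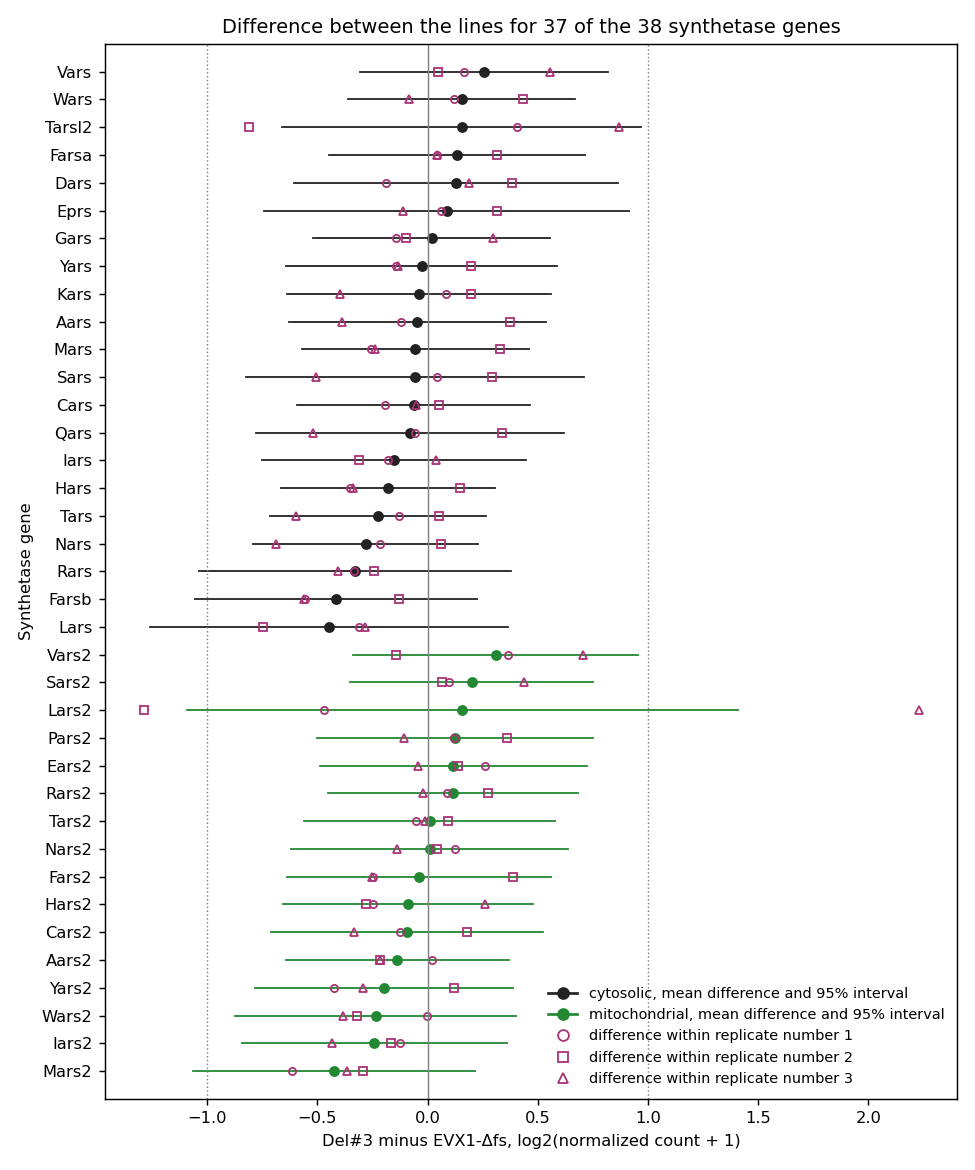
Difference between the lines, Del#3 minus EVX1-Δfs, in log2(normalized count + 1), for 37 of the 38 synthetase genes. Filled points are means with 95% intervals from limma, open symbols are the differences within each replicate number, and dotted lines mark a 2-fold change. Every interval includes 0, and the pairs of *Lars2* are the farthest apart.

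*Farsa* (chr8:87380888-87393156, plus strand) and *Farsb* (chr1:78414533-78485434, minus strand) encode the alpha and beta subunits of a single enzyme, which holds them in equal number. Per kilobase *Farsa* was the higher in every library, by 3.45, 8.96 and 5.15 times in EVX1-Δfs and by 5.24, 12.2 and 7.81 times in Del#3. The ratio was higher in Del#3 in each of the 3 pairs, and it was highest in replicate 2 of both lines. Its mean log2 was 2.44 ± 0.69 (SD, n = 3) in EVX1-Δfs and 2.99 ± 0.61 (n = 3) in Del#3, and the two-sided exact permutation test between the lines gave p = 0.4. This ratio was chosen after its values had been seen.

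Some synthetase genes passed the test of the replicate numbers. In a limma F-test of the replicate numbers, in a model with the line, 2 of the 38 genes had an adjusted p under 0.05 (5.26%), beside 546 of all genes tested (4.24%). They were *Eprs* and *Lars*, both of the multisynthetase complex. edgeR called *Eprs* alone, as did limma with TMM factors, and DESeq2 called *Dars*, *Rars* and *Sars* besides *Eprs* and *Lars*. *Eprs* (chr1:187186974-187252234, plus strand) encodes a class I glutamyl and a class II prolyl enzyme joined in 1 chain, and had 2447, 963 and 1830 normalized counts in EVX1-Δfs and 2550, 1197 and 1695 in Del#3. Replicate 1 was the highest and replicate 2 the lowest library in both lines. Replicate 2 was lower than replicate 1 by a log2 difference of -1.22 (adjusted p = 0.039 by the limma F-test). *Lars* was lower in replicate 2 by -1.17 (adjusted p = 0.044), and its counts, given above, had the same order of replicate numbers in both lines.

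Both calls were lost when either replicate 1 library was left out, but the differences kept about the same size. That of *Eprs* was -1.20 without EVX1-Δfs replicate 1 (adjusted p = 0.237 by the limma F-test) and -1.24 without Del#3 replicate 1 (adjusted p = 0.225). That of *Lars* was -1.28 (adjusted p = 0.196) and -1.07 (adjusted p = 0.361). Without either of these libraries 0 of the 38 genes were called, while leaving out any other single library gave 5 to 8. For all genes the count ran from 197 without EVX1-Δfs replicate 1 and 211 without Del#3 replicate 1 to 3175 without Del#3 replicate 3.

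At an unadjusted p under 0.05 the F-test gave 13 of 38 genes (34.2%), beside 27.7% of all genes tested. Of these, 7 were lower in replicate 2 than in replicate 1: *Eprs*, *Lars*, *Rars*, *Dars* (aspartate), *Farsb*, *Iars* (isoleucine) and its mitochondrial counterpart *Iars2*. Their log2 differences ran from -1.22 to -0.61. The other 6 were higher in replicate 2: *Sars*, *Qars*, *Yars* (tyrosine), *Ears2* (mitochondrial glutamate), *Farsa* and *Tars2*, by 0.58 to 0.97. The sign was the same in both lines for all 13, which the F-test favours, since it selects differences shared by the lines. Of the other 25 genes, 16 had the same sign in both lines.

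*Sars* had the largest positive difference, with 2770, 4968 and 5843 normalized counts in EVX1-Δfs and 2855, 6086 and 4111 in Del#3 (0.97, adjusted p = 0.086 by the limma F-test). *Qars* had 3703, 5608 and 6857 in EVX1-Δfs and 3555, 7087 and 4780 in Del#3. In both genes replicate 1 was the lowest library of each line. *Dars* had the opposite sign, with 983, 423 and 737 in EVX1-Δfs and 863, 553 and 839 in Del#3, replicate 2 being lowest in each line.

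Over all 38 genes, the difference between replicates 2 and 1 had the same sign in both lines for 29 (76.3%), beside 74.7% of all genes tested. That between replicates 3 and 1 had the same sign for 31 (81.6%), beside 72.7%. Both differences use the replicate 1 library of each line, so these shares are not independent of each other. Deviations from the line's mean correlated between the lines at 0.74 for replicate 1, 0.32 for replicate 2 and -0.05 for replicate 3.

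**Figure D4:**
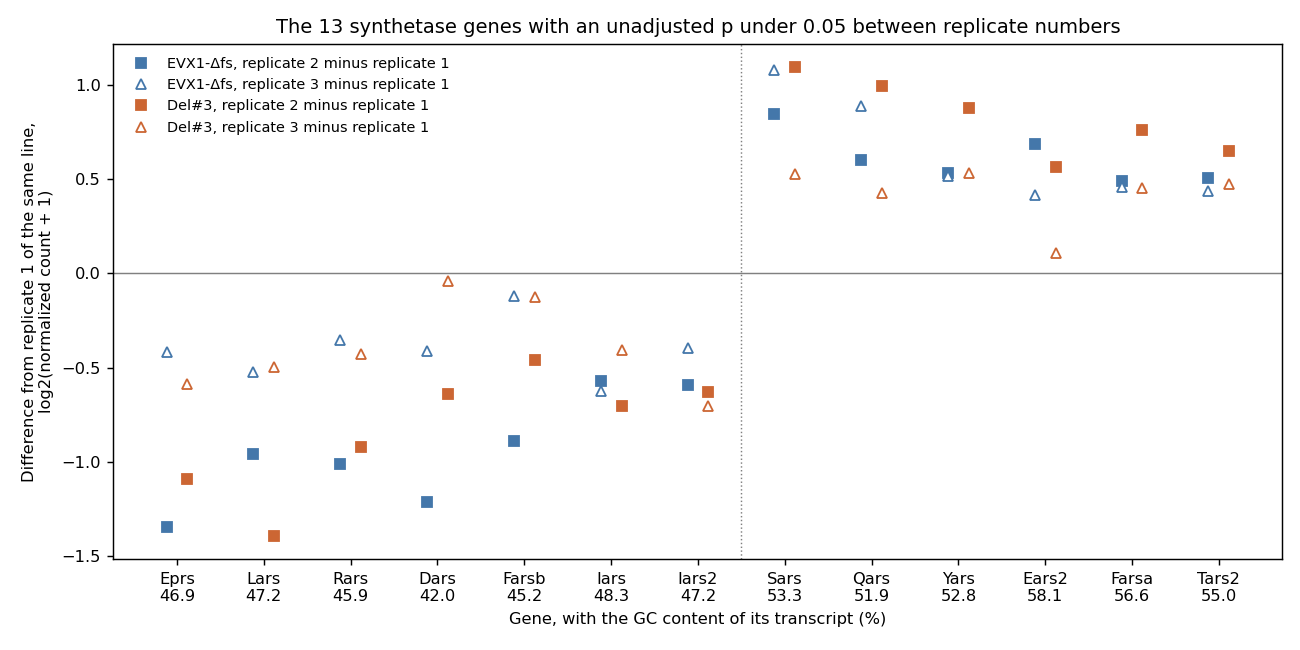
Difference of replicates 2 (squares) and 3 (triangles) from replicate 1 of the same line, in log2(normalized count + 1), for the 13 genes with an unadjusted p under 0.05 in the F-test of replicate numbers; the GC content of each transcript is under its name. The 7 genes at the left lie below 0 and the 6 at the right above 0 in both lines, an agreement that selection by this test favours.

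The 13 genes differed in base composition, which the test did not use. Transcripts of the 7 genes that were lower in replicate 2 had a GC content of 42.0% to 48.3%, with a median of 46.9%. Those of the 6 that were higher had 51.9% to 58.1%, with a median of 54.2%. The ranges did not overlap. Over the 38 genes the difference between replicates 2 and 1 had a Pearson correlation with GC content of 0.57 (0.67 over the 21 cytosolic and 0.47 over the 17 mitochondrial genes). Over the 12130 genes tested that had a gene model the correlation was 0.50. These are correlations across genes that share the same 6 libraries, and genes are not independent replicates. With log2 transcript length the correlation was -0.23 over the 38 genes and -0.35 over all. For the difference between replicates 3 and 1 the correlation with GC content was lower, at 0.24 over the 38 genes, 0.36 over the cytosolic and 0.04 over the mitochondrial genes, and 0.20 over all genes with a model. With log2 length it was -0.42 over the 38 genes and -0.36 over all. The difference between the lines, Del#3 minus EVX1-Δfs, had a correlation with GC content of 0.43 over the 38 genes (0.45 cytosolic, 0.40 mitochondrial), beside -0.12 over all genes with a model. The Spearman correlation of this difference with GC content was 0.39 over the 38 genes and 0.02 over all. With log2 length its Pearson correlation was -0.03 over the 38 genes and 0.33 over all.

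After a loess correction of each library for transcript length and GC content, the F-test called 0 of the 38 genes, beside 173 of 12130 (1.43%). At an unadjusted p under 0.05 it gave 10 of 38 (26.3%), beside 24.6%. The difference of *Eprs* between replicates 2 and 1 went from -1.22 to -0.62 (adjusted p = 0.19) and that of *Lars* from -1.17 to -0.74 (adjusted p = 0.092). That of *Sars* went from 0.97 to 0.77 (adjusted p = 0.09), and that of *Iars2* from -0.61 to 0.01. The size of the difference became smaller for 22 of the 38 genes and larger for 16. It grew for *Nars2*, from 0.31 to 0.95, which had the smallest adjusted p of the 38 after the correction (0.064 by the limma F-test), and for *Wars2*, from 0.35 to 0.93 (adjusted p = 0.13). Before the correction, the 5 epiblast markers (median 0.68) and 4 definitive endoderm markers (0.51) were all higher in replicate 2 than in replicate 1. Of the 7 streak and mesoderm markers 5 were higher and 2 lower, and the 4 primitive and visceral endoderm markers tested were all lower (-0.58). *Rn45s* went from 3.63% to 4.86% of reads in EVX1-Δfs and from 3.20% to 4.25% in Del#3. The replicate numbers also differ in depth and, if they mark the pairs, in day. The part of depth, day, cell types and base composition in these differences cannot be told apart.

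**Figure D5:**
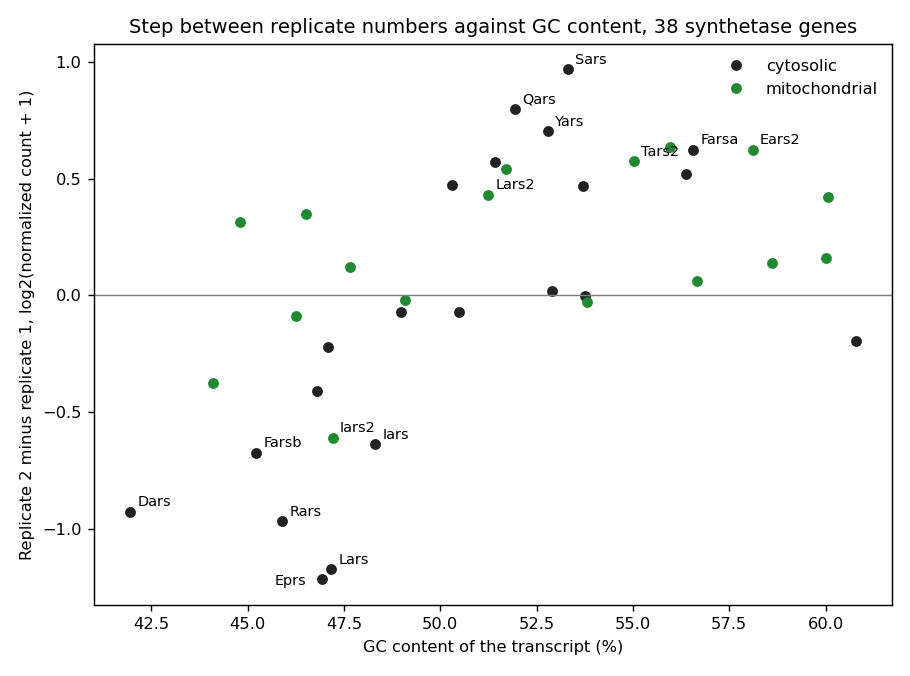
Log2 difference between replicates 2 and 1, as the mean of both lines, against the GC content of the transcript for the 38 synthetase genes; the 13 genes with an unadjusted p under 0.05 and *Lars2* are named. The 7 named genes at 42.0% to 48.3% GC lie below 0, and the 6 at 51.9% to 58.1% lie above it.

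By role, 6 of the 8 enzymes of the multisynthetase complex were among the 13 genes (*Dars*, *Eprs*, *Iars*, *Lars*, *Qars* and *Rars*), and *Kars* and *Mars* were not. By structural class, 8 of 19 class I genes, *Eprs* counted here, and 5 of 19 class II genes were among them. Cytosolic genes accounted for 10 of the 13. Of the 6 enzymes of the complex, *Qars* was higher in replicate 2 and the others were lower. These counts stand beside 27.7% of all genes tested. After the length and GC correction, 4 of the 8 enzymes of the complex had an unadjusted p under 0.05 by the limma F-test, and 0 were called. The counts were then 6 of 19 class I, 4 of 19 class II and 7 of 21 cytosolic genes, beside 24.6% of all genes with a gene model. All counts are given with no test of the lists.

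The partners of the synthetases and other genes of tRNA charging were represented by 17 genes, from 19 listed symbols. The symbols not found, *Gatb* and *Pet112l*, are other names of *Pet112*, which was found. By limma, edgeR and DESeq2 alike, 0 passed between the lines and 0 had an unadjusted p under 0.05, and their median log2 fold change was -0.13. The 4 with the smallest p were *Dtd2*, a D-aminoacyl-tRNA deacylase gene (-0.39, SE 0.33), *Trnt1*, which adds the CCA end to tRNAs (0.40, SE 0.35), *Prorsd1* (-0.48, SE 0.46) and *Aimp1*, a scaffold of the multisynthetase complex (-0.31, SE 0.31). Between replicate numbers limma and edgeR each called 1 of the 17 (5.88%), *Aimp2*, another scaffold of the complex, beside 4.24% of all genes tested by limma. DESeq2's likelihood ratio test called *Aimp2* and *Pstk*. *Aimp2* had 977, 1819 and 1897 normalized counts in EVX1-Δfs and 928, 2440 and 1792 in Del#3, replicate 1 being lowest in each line (1.14 for replicate 2 against 1, adjusted p = 0.043 by the limma F-test). After the length and GC correction its difference was 0.82 (adjusted p = 0.059), and 0 of the 15 genes with a gene model were called. At an unadjusted p under 0.05 limma gave 9 of 17 (52.9%), beside 27.7% of all genes tested, of which 7 were higher in replicate 2 than in replicate 1. *Pstk*, a kinase of selenocysteine synthesis, had a difference of 1.23 between replicates 2 and 1 (adjusted p = 0.058 by limma) and *Dtd1* one of 0.79 (adjusted p = 0.1), while *Eef1e1*, the third scaffold, had one of -0.81 (adjusted p = 0.1).

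Of 27 genes of the ATF4 amino acid response, 26 were tested. Between the lines 0 passed and 0 had an unadjusted p under 0.05 by limma, edgeR or DESeq2. *Cth* (cystathionine gamma-lyase) had a log2 fold change of -0.54 (SE 0.30) and *Asns* (asparagine synthetase) one of -0.40 (SE 0.27). These were the 2 genes of the 26 with an unadjusted p under 0.05 in limma once the replicate number was a block, beside 4.62% of all genes tested, and 0 passed the adjustment there. *Shmt2* (0.21, SE 0.22) and *Psat1* (-0.23, SE 0.26) followed.

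Between replicate numbers 0 of the 26 passed by limma and 6 had an unadjusted p under 0.05 (23.1%, beside 27.7% of all genes tested), while edgeR called *Atf4* and DESeq2 *Atf4* and *Vldlr*. *Atf4* itself had 2407, 1195 and 1231 normalized counts in EVX1-Δfs and 1815, 1131 and 938 in Del#3. Replicate 1 was the highest library of each line (-0.85 for replicate 2 against 1, adjusted p = 0.052). After the length and GC correction limma called *Atf4* too (-1.12, adjusted p = 0.03), the 1 gene of the 26 called there, and 7 had an unadjusted p under 0.05, beside 24.6%. *Sesn2* (0.95, adjusted p = 0.1), *Cebpb* (0.98, adjusted p = 0.13) and *Vldlr* (-1.47, adjusted p = 0.083) were next, with differences of both signs. Over the whole list the estimate of replicate 2 against 1 was above 0 for 21 of the 26 genes and below 0 for 5, with a median of 0.33, beside 6245 above and 6646 below and a median of -0.03 over all genes tested. *Asns* had an estimate of 0.54 (adjusted p = 0.14).

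The synthetase genes whose promoter sequences are shown above, *Gars* and *Tars*, had log2 fold changes between the lines of 0.02 and -0.22. Their differences between replicates 2 and 1 were 0.47 and -0.07, and neither had an unadjusted p under 0.05 in either test. Of the other genes whose windows hold the letters, *Aars* had a difference of 0.52 and also no unadjusted p under 0.05. *Iars* (-0.64) and *Yars* (0.70) were among the 13 genes with an unadjusted p under 0.05 between replicate numbers, and their signs were opposite.

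Some values carry limits of counting. Of the exons of *Iars*, 1960 bp (44.3%) have near-identical copies in 14 stretches, all on chromosome 1 at chr1:19321145-19323749 and at 95.1% to 98.9% identity, so its reads may be split between the places. *Hars* and *Hars2* overlap by 195 bp on opposite strands. *Iars2* overlaps *Rab3gap2* by 2018 bp, *Nars2* overlaps C230038L03Rik by 284 bp and *Vars* overlaps D17H6S56E-5 by 253 bp, also on opposite strands. Default HTSeq options count by strand, so these overlaps limit the counts only if strand was not kept. *Tarsl2* shares 120 bp with *Tm2d3* on the same strand, where reads cannot be assigned to 1 of the genes, and *Yars* shares 88 bp with the small nucleolar RNA gene snoU13, also on the same strand. Of the exons of *Wars2*, 142 bp (3.22%) have 10 near-identical copies on 8 chromosomes.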

How the data were processed

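The members and gene lists were chosen with earlier results of these data known. Ion Proton mRNA-seq reads of the 6 libraries were aligned by the authors to mm9 (TopHat2, then TMAP) and assigned to genes by HTSeq with default options, which count by strand; versions and the annotation are not given in the sources used here. The deposited signal values are these counts divided by a single size factor per library. In each library 100% of values were whole multiples of 1 step (tolerance 0.01), so reads were recovered, and the count tests were run on them as alternatives.

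Genes passing filterByExpr of edgeR 4.0.16 (minimum count 10) were tested with limma 3.58.1 (R 4.3.3) (trend = TRUE) on log2(normalized count + 1), which understates changes of low genes, with Benjamini-Hochberg adjustment over 12891 genes and a threshold of 0.05. edgeR's test called 461 and DESeq2 1.42.0 called 1298 genes between replicate numbers, and 2 and 3 between the lines. Fits were also run on simulated counts that held no dependence on base composition or transcript length. Their outcome is not given here, and they do not test how the fits handle such dependence in these libraries. Replicate numbers were taken as pairs because the series' design text has each side by side differentiation of both lines on its own day, although no source ties the days to the numbers; deviations of same-numbered libraries from their line's mean correlated at 0.74, 0.32 and -0.05 for replicates 1 to 3. RPM and RPKM used recovered reads on listed genes and GENCODE exons of NCBIM37; copies were found with BLAST+ 2.17.0 at 95% identity over 80 bp or more. Reads are not independent molecules.

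Every member is counted, and 1 is not reported by name here. Those named with values passed a test, had the 6 smallest p between the lines, were among the 3 highest or lowest per kilobase of a compartment, or formed a cytosolic and mitochondrial pair (those without matching symbols were added after the data were seen); of other lists, the 4 smallest p in each comparison. *Sars*, *Qars*, *Dars*, *Iars2*, *Nars2*, *Aars*, *Gars*, *Farsa*, *Tars*, the 13 genes of the unadjusted test and *Asns* between replicate numbers were otherwise named after their values were seen. Alternatives were DESeq2, edgeR, the replicate block, TMM factors, total reads, pseudocounts of 0.1 and 5, other filters, an adjusted p under 0.1 and leaving out each library; the loess correction (span 0.3) was added after the data were seen.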

Additional observations from a re-analysis of the deposited data

How the results depend on the processing

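Between the lines, 0 of the 38 synthetase genes were called under all 19 alternative fits and at an adjusted p under 0.1, and the smallest adjusted p in those fits was 0.992. The count over all genes was 2 or 3 except with DESeq2 and the replicate block, which called 9. The replicate block in limma called 3 and moved the count at an unadjusted p under 0.05 from 133 to 596 genes; it changed no other call. The median log2 fold change of the cytosolic genes was -0.20 to 0.01 and that of the mitochondrial genes -0.13 to 0.06 with 1 library left out. The estimate changed sign in at least 1 alternative for 22 of the 38 genes, the largest of these being 0.16 in size, so their direction between the lines is not set.

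Between replicate numbers, the 546 genes called became 1603 at an adjusted p under 0.1, 1298 with DESeq2, 347 with TMM factors, 317 with total reads and 173 after the length and GC correction, and 197 to 3175 with 1 library left out. The 2 synthetase genes became 5 at an adjusted p under 0.1, 5 with DESeq2, 1 with edgeR, 1 with TMM factors, 0 after the correction and 0 to 8 with 1 library left out. Across single genes and alternatives, 9 calls of *Eprs* or *Lars* were lost and 22 calls of 8 other genes were gained; the cause was not tested. The estimate changed sign for 15 of the 38 genes, *Iars2* among them. Every synthetase gene had at least 63 reads in each library, and counting error was not separated from the spread between libraries.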
